A study of Bos taurus with 8 samples.

Results

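MYOC, VIT, SPP2, CYP4B1, GFRA1, DPT, SCARA5 and APOD are 8 genes that mark fibro-adipogenic progenitors (FAPs) in bovine muscle, and they were followed from the tissue through culture. They were selected on their measured UMI levels, since earlier results of these data showed them high in the FAPs of muscle and low afterwards, so their muscle specificity and their level at each passage are given as descriptions without a test. All 8 were found by symbol among the 21880 genes of the count tables, as ENSBTAG00000020342 (MYOC), ENSBTAG00000024980 (VIT), ENSBTAG00000002030 (SPP2), ENSBTAG00000011976 (CYP4B1), ENSBTAG00000019297 (GFRA1), ENSBTAG00000021211 (DPT), ENSBTAG00000019636 (SCARA5) and ENSBTAG00000023600 (APOD).

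The study sequenced single cells from the semitendinosus muscle of 10 Belgian Blue cattle, donors 2, 4, 5, 7 and 10 being calves and donors 1, 3, 6, 8 and 9 adults. Donors 6, 8 and 10 were male and the others female. Cells were taken directly after isolation ("muscle"), after plating for 72 h in a growth medium without serum (P0), and at passages 2, 5 and 8 (P2, P5 and P8), with all donors pooled into 1 library per timepoint, so that timepoint and library cannot be told apart. By the series' design text every donor was unsorted in muscle and at P0, although the label of the P0 library lists SCs and FAPs beside unsorted cells, and P0 was treated as unsorted here. After that, donors 4, 7 and 8 were carried as sorted FAP cultures on collagen, donors 5, 6 and 10 as sorted satellite cell (SC) cultures on laminin and donors 1, 2 and 9 as unsorted cultures on fibronectin, while donor 3 was sampled in muscle alone. Culture type was therefore never compared within one animal. The unsorted cultures came from females alone, whereas the FAP and SC cultures included males.

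FAPs are the PDGFRA-positive mesenchymal cells that lie between the fibres of skeletal muscle. They lay down collagen and other matrix, support SCs during repair, and can turn into adipocytes or myofibroblasts. When such cells are taken out of the tissue and plated, they leave a resting state, enter the cell cycle and commonly lose part of their resting gene programme. Among the genes described here, DPT (dermatopontin), VIT (vitrin), MYOC (myocilin) and SPP2 (secreted phosphoprotein) encode secreted or matrix proteins, APOD encodes a lipocalin that carries small hydrophobic ligands, SCARA5 a scavenger receptor that binds ferritin, GFRA1 a membrane-anchored co-receptor for GDNF that signals with RET, and CYP4B1 a mono-oxygenase of fatty acids and foreign compounds.

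The cells kept and typed by the authors numbered 4395 in muscle, 9591 at P0, 8966 at P2, 10405 at P5 and 2772 at P8, of which 1231, 5756, 4987, 6819 and 2616 were FAPs. The median FAP held 6213 UMIs in muscle, 24188 at P0, 29540 at P2, 22329 at P5 and 18427 at P8, and pairs of libraries shared 4 to 29 cell barcodes. Levels are given as CPM: the UMIs of a gene summed over the FAPs of 1 donor, per 1000000 UMIs of those cells, for donors with at least 10 such cells. Because these are 3′ counts, a level is compared within a gene and not between genes. The FAP label was checked against 5 FAP markers (PDGFRA, DCN, LUM, COL1A1 and COL3A1), whose summed level in FAPs was 37506 CPM in muscle, 5625 at P0, 28801 at P2, 39500 at P5 and 20973 at P8. Pooled over donors, the P0 FAPs thus carried these markers at a lower level than the FAPs of any other timepoint. Single donors lay between 4510 and 8011 CPM at P0. The few FAPs in the SC cultures of donors 5 and 10 at P2 fell in that range (7757 and 6450 CPM).

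In muscle, FAPs made up 28.0% of the cells and 36.8% of the UMIs, and they held most of the UMIs of every gene described here. The share lying in FAPs was 97.8% for CYP4B1, 97.6% for DPT, 95.6% for VIT, 94.5% for SCARA5 and 93.6% for SPP2. It was lower for MYOC (86.0%), APOD (84.7%) and GFRA1 (78.6%). Relative to all other muscle cells pooled, the FAP level was 76.4-fold higher for CYP4B1, 68.4-fold for DPT, 36.9-fold for VIT, 29.2-fold for SCARA5, 25.2-fold for SPP2, 10.6-fold for MYOC, 9.50-fold for APOD and 6.32-fold for GFRA1. In each of the 10 donors all 8 genes were higher in FAPs than in the other cells of any donor, groups without overlap as for 17.7% of genes, which the choice of these genes fixes. Over all genes, an edgeR fit called 9.36% of 7512 higher in FAPs.

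The donors differed little for some genes and widely for others. DPT was between 1021 and 1723 CPM in muscle FAPs, with a median of 1319 over the 10 donors and a mean of 1352 ± 222 (SD, n = 10). GFRA1 was the most even, at 166 to 245 CPM (mean 214 ± 23.7), and MYOC ranged from 467 to 688 CPM (mean 563 ± 75.3). APOD was the least even: it ran from 231 CPM in donor 8 to 2563 CPM in donor 4, with a mean of 887 ± 670. SCARA5 ranged from 336 to 671 CPM (mean 514 ± 123), SPP2 from 125 to 336 CPM (mean 216 ± 60.9), VIT from 109 to 229 CPM (mean 157 ± 39.7) and CYP4B1 from 28.7 to 140.1 CPM (mean 71.3 ± 33.6). When each cell was thinned to 2000 UMIs, the share of muscle FAPs with at least 1 UMI was 72.9% ± 6.08 for DPT, 61.7% ± 6.17 for MYOC, 55.7% ± 8.14 for SCARA5, 39.7% ± 19.1 for APOD, 33.6% ± 5.24 for GFRA1, 27.3% ± 6.66 for SPP2, 26.3% ± 7.78 for VIT and 9.21% ± 2.81 for CYP4B1. In B/T/NK cells of muscle, which should lack these genes, the same shares were 0.345% to 2.28%.

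**Figure D1:**
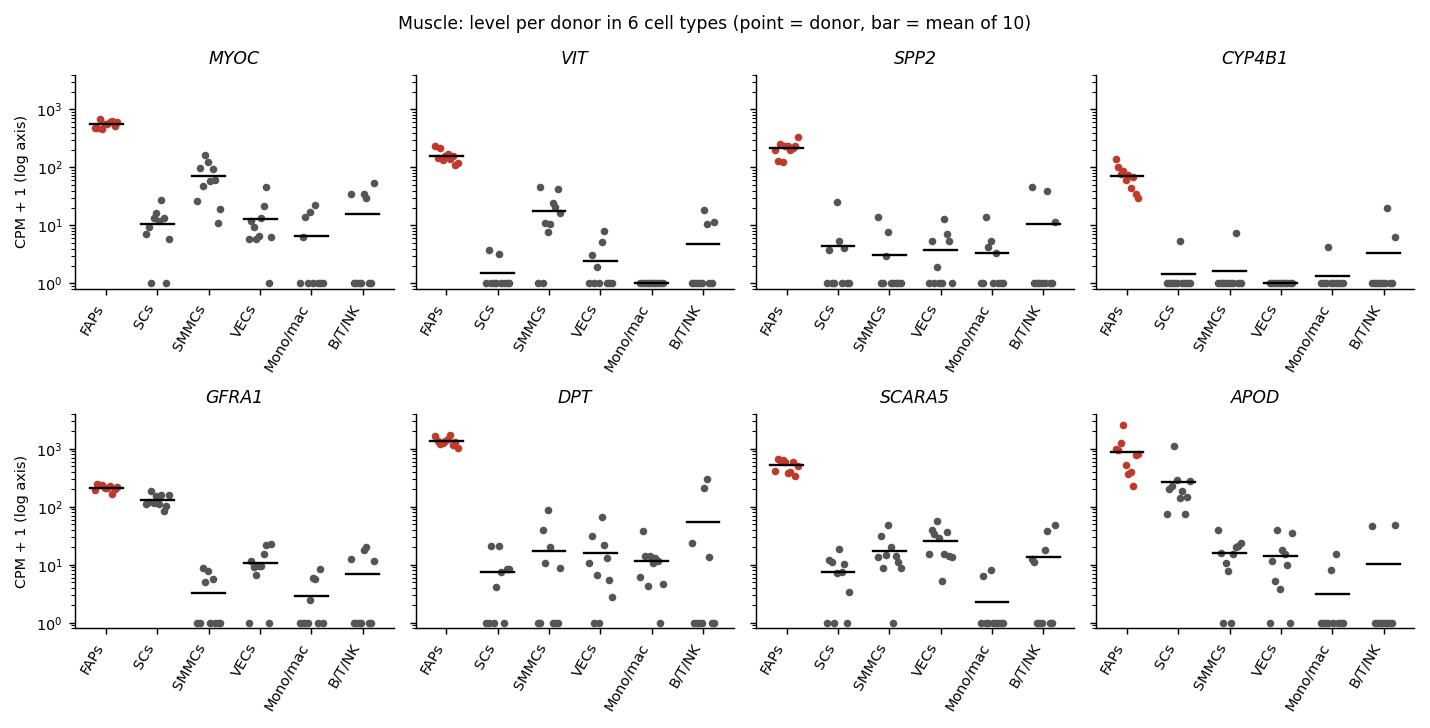
Level of each gene in the 6 muscle cell types with at least 10 cells in all 10 donors (x axis: FAPs, SCs, smooth muscle mesenchymal cells (SMMCs), vascular endothelial cells (VECs), monocytes/macrophages and B/T/NK cells; y axis: CPM + 1 on a log scale; points are donors, bars are means). FAPs, in red, lie above every other type for 6 genes, while the ranges of GFRA1 and APOD in SCs (83.8 to 184 and 74.5 to 1106 CPM) overlap those in FAPs.

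The exceptions to FAP specificity were gene by gene. GFRA1 was present in SCs at 130 ± 31.7 CPM, or 60.2% of the pooled FAP level, and was lower in SCs than in FAPs of the same animal in all 10 donors. APOD reached 271 ± 302 CPM in SCs, again below the FAPs of the same donor in 10 of 10, and donor 4, with the highest APOD in FAPs, also had the highest in SCs (1106 CPM). MYOC and VIT had a second, weaker site in SMMCs, at 69.5 ± 49.5 and 17.1 ± 15.6 CPM. In VECs, SCARA5 was at 25 ± 15.9 CPM.

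Small populations held some of these genes at or above the FAP level. The 23 tenocytes, from 6 donors, carried 394 UMIs of MYOC, which is 2776 CPM (95% Poisson interval 2509 to 3064, counting error only), and all 23 had at least 1 UMI of it. Their MYOC level was 487% of that in FAPs and their SPP2 level, 486 CPM from 69 UMIs, was 211%, whereas SCARA5 was at 4.03%. Tenocytes share the fibroblast matrix genes (FAP markers 83549 CPM) and were set apart by tendon markers such as TNMD and SCX, at 10394 CPM summed. The 12 glial cells had APOD at 1024 CPM from 41 UMIs (interval 735 to 1389) and GFRA1 at 175 CPM from 7 UMIs (interval 70.3 to 360). The 51 cells labelled neutrophils also showed APOD, at 790 CPM, but 61 of their 78 APOD UMIs came from donor 4 and their FAP markers summed to 7644 CPM. Their neutrophil markers summed to 20856 CPM, so both sets were present under this label, and the part of FAP RNA in the APOD value was not tested. In B/T/NK cells all 8 genes were at 1.85% to 5.04% of the FAP level, beside 2.13% to 6.98% for the 5 FAP markers, DCN being the lowest and LUM the highest.

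After 72 h in culture all 8 genes were far below their muscle level in the FAPs of every donor, but to very different extents. Over the 9 donors with both timepoints, the median share of a donor's own muscle CPM that was left at P0 was 4.95% for DPT, 1.06% for APOD, 0.554% for VIT, 0.514% for SCARA5, 0.262% for GFRA1 and 0.234% for MYOC, and it was 0 for SPP2 and CYP4B1. No donor exceeded its muscle CPM for any of these genes at P0, P2, P5 or P8. By UMIs per FAP, SCARA5 did pass the muscle value in donors 7 and 8 at P2 (145% and 178%) and in donors 2 and 9 at P5 (115% and 102%), and by the share of thinned cells with a UMI APOD did so in donor 8 at P2 and P5 (148% and 123%). Because FAPs held about 4-fold more UMIs at P0 than in muscle, the same losses were smaller per cell: by UMIs per FAP, a median of 18.8% was left for DPT, 4.17% for APOD, 2.28% for VIT, 1.91% for SCARA5, 0.893% for MYOC and 0.855% for GFRA1. UMIs per cell follow the sequencing depth of a library as well as RNA content, and these cannot be told apart here. The labels list runs 1 and 2 for P0, P2 and P5 but run 1 alone for muscle and P8. Muscle FAPs also held muscle fibre markers at 891 CPM and tenocyte markers at 544 CPM, against 0.763 and 18.5 CPM at P0, and the part of such RNA in the muscle values was not tested. In bulk sums of this kind, fewer cells with a gene and less RNA of it per cell cannot be told apart, and a share of cells with a UMI does not separate them either. In thinned cells that share went from 72.9% to 11.4% ± 3.90 for DPT and from 61.7% to 0.156% ± 0.151 for MYOC.

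**Figure D2:**
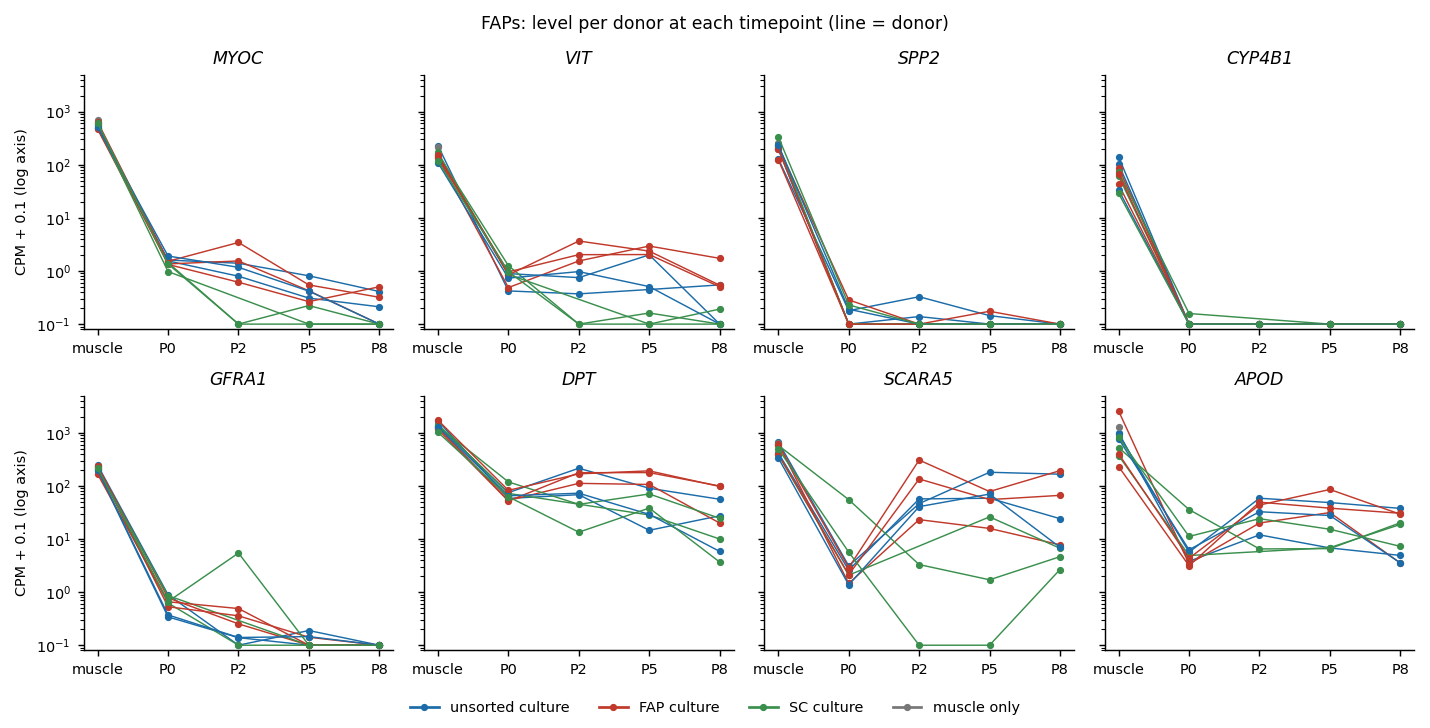
Level of each gene in FAPs at the 5 timepoints (x axis: muscle, P0, P2, P5, P8; y axis: CPM + 0.1 on a log scale; points and lines are donors, coloured by the culture type each donor had after P0). Every line drops between muscle and P0; afterwards SPP2 and CYP4B1 stay near the axis floor, as does GFRA1 from P2 on except for 5.34 CPM in donor 10 at P2, whereas DPT, SCARA5 and APOD lie between 0 and 306 CPM. The SC culture of donor 6 had 7 FAPs at P2 and is not drawn there.

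By median share of the muscle CPM, DPT kept the most at P0, but SCARA5 was above it at P2, P5 and P8. In muscle FAPs DPT was at 1021 to 1723 CPM. At P0 it was at 51.8 CPM in the lowest donor, 65.0 in the median and 118.6 in the highest (donor 5). Pooled over donors this is a level 18.4-fold below muscle (counting interval 17.9 to 18.9). P0 SCs had 7.36 ± 3.88 CPM against 70.8 ± 20.5 in FAPs, with FAPs above SCs in 9 of 9 donors. P0 monocytes/macrophages came closer, at 24.7 ± 15.4 CPM in 7 donors with the highest at 54.3, and these cells also held FAP markers at 2173 CPM, against 5625 in FAPs, whose part in the DPT value was not tested. SMMCs, lymphatic endothelial cells and VECs had means of 9.98, 9.06 and 5.42 CPM. DPT was thus a gene by which FAPs still stood apart from SCs at P0, with a median of 4.95% of its level in tissue left.

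SCARA5 and APOD were lower still at P0 and had higher medians at P2. SCARA5 was at 336 to 671 CPM in muscle and at 1.27 CPM in the lowest, 2.49 in the median and 54.9 in the highest P0 FAPs, the last from donor 5. At P2 the 3 FAP cultures had 23.0, 134.9 and 306.0 CPM (donors 4, 7 and 8) and the 3 unsorted cultures 56.7, 46.2 and 40.6 (donors 1, 2 and 9). The 19 and 12 FAPs found in the SC cultures of donors 5 and 10 had 3.2 and 0 CPM. All 6 FAP and unsorted cultures were therefore above the P0 values of every donor but donor 5. APOD was at 3.04 to 35.7 CPM at P0 (median 4.78) and at 6.40 to 58.4 CPM at P2, where the median share of the muscle level was 3.58%, against 9.48% for SCARA5 (range 0 to 51.1%). By UMIs per cell, the P2 median was 55.3% of muscle for SCARA5 and 18.7% for APOD. The fitted log2FC of P2 against P0 was 3.37 for SCARA5 and 2.04 for APOD, given as a description. Single donors moved these differences: as a log2 ratio of mean CPMs with 1 donor left out, SCARA5 ran from 2.26 without donor 8 to 5.08 without donor 5, and APOD from 1.57 without donor 2 to 2.71 without donor 5.

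MYOC and VIT stayed at a few CPM or less in culture. MYOC was at 0.875 to 1.81 CPM in P0 FAPs, 431-fold below muscle when pooled (interval 372 to 503), and this was no longer a FAP level: P0 SCs held 1.19 ± 0.570 CPM and P0 SMMCs 1.05 ± 1.64, beside 1.35 ± 0.253 in FAPs. At P2 it was 0 to 3.34 CPM, at P5 at most 0.712 and at P8 at most 0.405, with 5 of 9 donors at 0. Its fitted log2FC of P5 against P2 was -1.92, again a description. VIT stayed at 0.322 to 1.16 CPM at P0, with a mean of 0.725 against 0.0583 in P0 SCs, whose highest donor (0.337 CPM) overlapped the lowest FAP value, and at 0 to 3.57 CPM at P2, 0 to 2.85 at P5 and 0 to 1.63 at P8. In the FAP cultures of donors 4, 7 and 8 the share of the muscle CPM of VIT was 0.286%, 0.627% and 0.484% at P0 and 1.07%, 1.41% and 2.32% at P2, so it was higher at P2 in each of these 3 donors. In the unsorted cultures of donors 1, 2 and 9 it was 0.140%, 0.554% and 0.582% at P0 and 0.118%, 0.454% and 0.802% at P2. The FAPs in the SC cultures of donors 5 and 10 had no UMI of it at P2. These were 31 cells with 1000080 UMIs in all, too few to compare at such levels.

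SPP2, CYP4B1 and GFRA1 were close to the limit of counting. SPP2 had 8 UMIs in the 5756 FAPs of P0, 8 at P2, 3 at P5 and 0 at P8, against 1779 in 1231 muscle FAPs. CYP4B1 had 490 UMIs in muscle FAPs, 1 at P0 and 0 at every later timepoint, which puts its level at least 3182-fold lower at P2, 3386-fold at P5 and 1073-fold at P8 if 3 UMIs are taken as the pooled floor. GFRA1 had 74 UMIs at P0, 391-fold below muscle, then 21 at P2, 4 at P5 and 0 at P8. Its highest P2 value, 5.34 CPM in donor 10, rested on 2 UMIs in 12 cells.

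From P2 on the ranges over donors at successive timepoints overlapped for DPT, SCARA5 and APOD. Such ranges leave out the pairing, as the same animals were sampled at each passage. DPT had a median of 7.22% of the muscle level at P2, 5.22% at P5 and 1.62% at P8, and the FAP cultures ended at 19.9, 97.3 and 99.3 CPM (donors 4, 7 and 8). Its fitted log2FC from P5 to P8 was -1.23, or -1.31 with donors as a block. SCARA5 had a median of 13.1% at P5 and 2.05% at P8, with donors from 0.513% to 32.3% of muscle at P8. Its mean CPM was nearly the same, at 53.9 and 53.1. With 1 donor left out, the log2 ratio of its mean CPMs ran from -0.517 to 0.181. APOD had a median of 1.85% at P5 and 3.82% at P8, and of 7.86% and 11.2% by UMIs per FAP, but other measures went the other way. Its mean CPM went from 29.5 to 17.2, and its median share of thinned cells from 11.4% to 7.42% of muscle. As a log2 ratio of mean CPMs with 1 donor left out, its change ran from -0.946 to -0.522. Without donors as a block, 0.302% of 11594 genes were called lower from P2 to P5. From P5 to P8, 0.445% of 10340 were called in either direction. With donors as a block, the genes called in either direction were 434 from P2 to P5 (76 without) and 120 from P5 to P8 (46 without).

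The number of these genes seen per cell was also counted, which is the sum of their shares of cells with a UMI. After thinning to 2000 UMIs, a muscle FAP showed a mean of 3.26 of the 8 genes (SD over donors 0.222), and 71.3% of 1193 FAPs had 3 or more of them. At P0 the mean was 0.154 ± 0.083, 84.6% of 5655 FAPs had none, and 3 cells had 3 or more. The means were 0.371 ± 0.277 at P2, 0.282 ± 0.206 at P5 and 0.186 ± 0.191 at P8, all from the same depth per cell. DPT made up most of this at P0, with 11.4% of FAPs holding a UMI of it, beside 1.98% for APOD and a lower share for SCARA5. At P2 the shares were 18.1% for DPT, 5.55% for APOD and 13.0% for SCARA5, so DPT no longer made up most of it.

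The order of FAPs and SCs was turned for APOD from P0 on, and for GFRA1 at P0. APOD was above the FAP level in SCs of 0 of 10 donors in muscle but of 9 of 9 at P0, where SCs had 62.7 ± 43.0 CPM and FAPs 8.62 ± 10.4. The same order held in 8 of 8 donors at P2 (118 ± 49.8 in SCs), in 6 of 7 at P5 (114 ± 80.0) and in 4 of 4 at P8 (60.3 ± 50.0). Against the muscle SCs (mean 271 CPM, median 191, with donor 4 far above the rest), the mean CPM of SC APOD was lower at each timepoint in culture, but its UMIs per SC were not: they averaged 1.05 in muscle and between 1.17 (P0) and 2.76 (P2) at the timepoints in culture. In SCs thinned to 2000 UMIs the share with a UMI was 17.6% in muscle, 12.2% at P0 and 19.1% at P2, so the direction for SCs depended on the scale. GFRA1 was at 2.41 ± 1.38 CPM in P0 SCs and 0.535 ± 0.195 in P0 FAPs, with SCs higher in 8 of 9 donors. At P2 SCs were higher in 4 of 8 donors (0.360 against 0.777 CPM on average), at P5 in 1 of 7 and at P8 in 0 of 4, from at most 21 UMIs in a cell type, so the turned order of GFRA1 was seen at P0 alone. P0 monocytes/macrophages had GFRA1 at 3.83 ± 8.51 CPM in 7 donors, from 3 UMIs in all. Glial cells had the highest pooled level of both genes at P0: the 48 glial cells of P0 held GFRA1 at 160 CPM from 66 UMIs (interval 124 to 204) and APOD at 429 CPM from 177 UMIs (interval 368 to 497), with no UMI of MYOC, VIT or SCARA5.

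**Figure D3:**
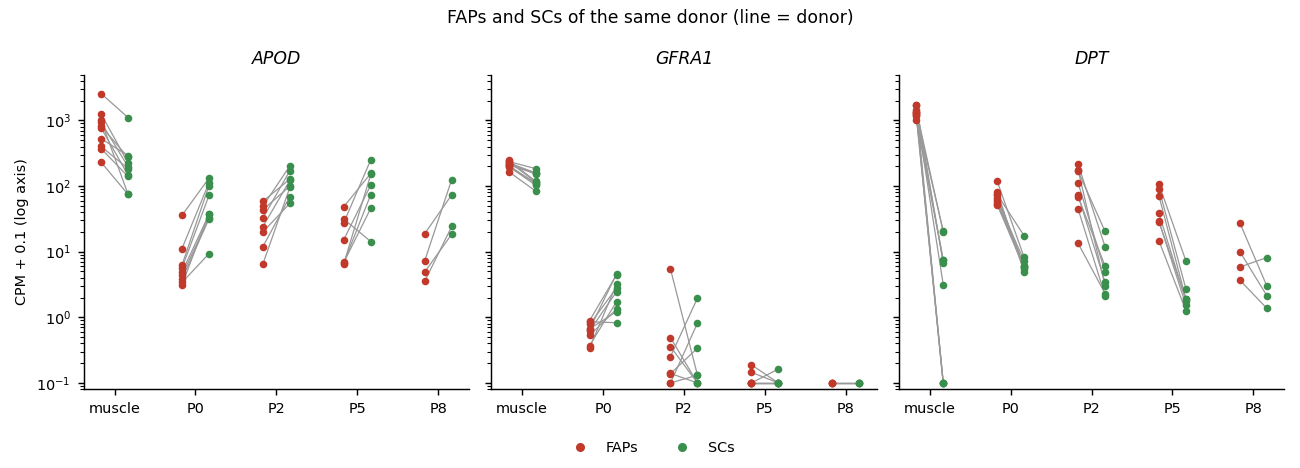
APOD, GFRA1 and DPT in FAPs (red) and SCs (green) of the same donor at each timepoint (y axis: CPM + 0.1 on a log scale; lines join the 2 cell types of a donor, where each had at least 10 cells). APOD lines slope down in 10 of 10 muscle donors and up in 9 of 9 at P0, whereas DPT is higher in FAPs in every donor except 1 of 4 at P8.

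The wider FAP programme was described with lists of genes that were chosen with earlier results known. Of 20 pan-FAP and fibroblast genes, 19 were called lower at P0 than in muscle and 0 higher (median log2FC -2.57, against 0.03 over all genes tested), with MFAP5 (-7.63), MFAP4 (-7.05), FBLN1 (-5.16) and THY1 (-4.05) showing the largest differences; 22.5% of 9208 genes were called lower. Of 16 tested culture-activated or myofibroblast genes 5 were higher and 5 lower at P0, among them CCN2 (-3.18), FN1 (-2.92) and VIM (1.27). All 10 called of 11 adventitial fibroblast genes were lower, led by PI16 (-10.2) and CD34 (-6.41), and so were 9 of 11 complement and acute phase genes, led by A2M (-9.38) and C7 (-6.89). From P0 to P2, 13 of the 20 pan-FAP genes were called higher and 0 lower, beside 11.3% of 11384 genes called higher (median log2FC 1.57, against 0.03), among them the matrix genes MFAP4 (3.66), COL1A1 (3.55), COL1A2 (3.30) and LUM (3.04). Of the 11 adventitial genes 6 were called higher and 1 lower in that interval (median 1.96), among them GSN (2.37), IGFBP6 (2.14) and CD248 (1.96), and of the 11 complement genes 8 were higher and 0 lower (median 2.37). Of 17 culture-activated or myofibroblast genes 11 were called higher from P0 to P2, with the contractile genes CNN1 (3.99), ACTA2 (3.96) and TAGLN (3.80), and 1 lower, POSTN (-5.22).

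The partners of single genes were also examined. GFRA1 acts with RET or NCAM1, and all 4 tested genes of the GDNF receptor list were lower at P0, beside 22.5% of 9208 genes. The list holds GFRA1 itself, whose fall is fixed by the choice of these genes. The others were RET (log2FC -5.80), GFRA3 (-4.90) and NCAM1 (-2.47). Of 7 genes of retinoid and xenobiotic metabolism 6 were lower, CYP4B1 included, whose fall is again fixed by the choice. Among the rest were ALDH1A2, which makes retinoic acid (-4.83), and the extracellular peroxidase GPX3 (-5.49). Of 8 tested adipogenic and lipid genes 3 were lower, the lipase gene LPL (-6.38) and the adipogenic regulators ZNF423 (-3.15) and EBF1 (-3.03), 2 were higher, the lipid droplet coat gene PLIN2 (3.94) and the adipogenic regulator PPARG (1.52, donors overlapping between timepoints), and 3 were not called.

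Patterns over cell types were compared across the 19 cell type and timepoint means and 11090 genes, as Pearson's r of log2(CPM + 1). The 11090 were not limited to genes with a symbol, but only genes with a symbol were ranked as matches. Tenocytes, glial cells, neutrophils and myocytes had too few cells per donor to enter these means. These means share libraries and donors, so r is a description. The genes most like CYP4B1 were KERA (0.974), TTR (0.969) and MDFIC2 (0.964). KERA is one of the tendon markers used here, but no tenocyte mean entered. SPP2 was most like ADAM22 (0.949), CYP4B1 (0.948) and WNT2B (0.945), and MYOC most like ENPP1 (0.949), SPP2 (0.920) and the complement gene C7 (0.916). VIT was most like CNTN1 (0.939), ADAM22 (0.935) and ADGRD1 (0.927), and GFRA1 like HMCN2 (0.95), DLK1 (0.940) and NPPC (0.926). DPT was most like ARL14EPL (0.909), FBLN1 (0.860) and VEGFD (0.853) and SCARA5 like PRELP (0.880), UGP2 (0.873) and FBLN1 (0.854), the lowest first matches of the 8 genes, while APOD was most like CRACD (0.930), FZD2 (0.925) and GALNT15 (0.914). Between the 8 genes, r was highest for SPP2 and CYP4B1 (0.948) and lowest for DPT and APOD (0.310). In tenocytes, which were left out, SPP2 was at 211% of the FAP level and CYP4B1 at 11.1%, from 1 UMI. All 8 were chosen as high in muscle FAPs and low afterwards, which by itself makes them alike over these means.

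APOD differed across a split of the muscle FAPs. FAPs were split within each donor at the median level of MFAP5, a microfibril gene of perimysial and adventitial fibroblasts that was not among the 8, giving 613 MFAP5-high and 618 MFAP5-low cells. APOD was at 445 ± 586 CPM in MFAP5-high cells (lowest donor 50.8, median 288, highest 2031) and at 1420 ± 849 in MFAP5-low cells (lowest 440, median 1320, highest 3195). It was lower in the MFAP5-high cells in 10 of 10 donors although the 2 ranges overlapped, with a log2FC of -2.01 (SE 0.31, adjusted p = 0.0017, edgeR quasi-likelihood F test with donor as block). It was 1 of the 8 genes called, beside 2.44% of 4065 genes called in all and 0.984% called lower. Without the donor block APOD had a log2FC of -1.66 and an adjusted p of 0.126 in edgeR, and was not called.

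The other genes differed little across this split. MYOC was at 500 ± 79.0 CPM in MFAP5-high and 642 ± 92.0 in MFAP5-low cells, lower in 10 of 10 donors, with a log2FC of -0.35 (SE 0.08, edgeR adjusted p = 0.0013) that lay under the fold limit of 1. DPT went the other way, at 1495 ± 311 against 1195 ± 207 CPM, higher in 8 of 10 donors (log2FC 0.34, SE 0.09, edgeR adjusted p = 0.0073), also under the limit. For GFRA1, CYP4B1, VIT, SPP2 and SCARA5 the log2FC was between -0.49 and 0.18 with edgeR adjusted p from 0.0956 to 0.914. The adventitial genes were higher in MFAP5-high cells for 6 of 11 tested and lower for 0 (median log2FC 1.32, against -0.02 over all genes), led by CLEC3B (2.10), CD248 (1.89), SEMA3C (1.76) and PI16 (1.46), each in 10 of 10 donors. MFAP5-high cells held more UMIs (6494 per cell against 5504), more tenocyte marker RNA (743 ± 366 against 518 ± 279 CPM) and less monocyte or macrophage marker RNA (12.9 ± 4.15 against 33.9 ± 20.8 CPM). Lymphocyte markers were at 0.161 ± 0.508 against 12.9 ± 21.7 CPM (medians 0 and 0.503), vascular markers at 52.9 ± 78.9 against 28.6 ± 14.2 CPM (medians 27.7 and 26.1) and muscle fibre markers at 964 ± 178 against 828 ± 182 CPM. The part of these differences in the result was not tested. The 5 FAP markers were at 35565 and 35932 CPM.

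At P0, 78.7% ± 5.59 of the FAPs of a donor were in S or G2M phase by the deposited phase call, and FAPs called S or G2M are named cycling here. Cell cycle genes, of the kind such a call reads and chosen after the split was seen, went with it in 9 of 9 donors: the proliferation marker MKI67 was at 222 ± 14.8 CPM in cycling and 32.6 ± 6.75 in G1 FAPs, the topoisomerase gene TOP2A at 307 ± 16.9 and 28.7 ± 5.41, and the replication clamp gene PCNA at 275 ± 16.8 and 91.9 ± 9.92. SCARA5 was at 14.8 ± 25.1 CPM in G1 FAPs (lowest donor 2.83, median 6.53, highest 80.5) and at 6.82 ± 15 in cycling FAPs (lowest 0.793, median 1.87, highest 46.8). It was lower in the cycling cells of 8 of 9 donors, with donor 2 the exception (2.83 and 3.06 CPM), and was called with a log2FC of -1.52 (SE 0.27, edgeR adjusted p = 0.0010, donor as block); 1.72% of 10214 genes were called lower and 5.02% called in all. Without the block the log2FC was -1.4 with an edgeR adjusted p of 0.265. SCARA5 passed the count filter through the G1 cells, where it was high, so its call adds nothing to these values. Its G1 counts were low in most donors, at 5 UMIs in donors 4 and 6 against 335 in donor 5. Donor 9 had 7 UMIs of it in G1 and 7 in cycling FAPs. APOD was lower in cycling cells of 9 of 9 donors, at 7.62 ± 9.76 against 13.5 ± 12.8 CPM, by a log2FC of -0.99 (SE 0.19, edgeR adjusted p = 0.0006) that did not reach the fold limit, though it passed it without donor 1, 5, 6 or 9 (-1.01 to -1.16). DPT was at 74.5 ± 21.4 CPM in cycling and 52.6 ± 21.4 in G1 FAPs, higher in 9 of 9 donors (log2FC 0.43, SE 0.07, edgeR adjusted p = 0.0001), also under the limit.

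The remaining 5 genes were under the count filter in that comparison. Among the lists, CLU (-1.82) and CFB (-1.04) of 9 complement and acute phase genes, the fatty acid binding protein gene FABP4 (-1.91) of 9 adipogenic genes and GPX3 (-1.21) of 7 retinoid and xenobiotic genes were lower in cycling FAPs, and no gene of these lists was called higher. G1 cells held fewer UMIs (18495 per cell against 25007) and more RNA of neutrophil (44.9 against 16.1 CPM), vascular (28.8 against 12.7 CPM) and tenocyte (28.8 against 17.9 CPM) markers. Glial (21.2 against 13.8 CPM) and FAP markers (6206 against 5343 CPM) were higher in G1 as well. Smooth muscle and mesenchymal markers were lower in G1 (48.5 against 55.8 CPM), as were muscle fibre, lymphocyte and monocyte or macrophage markers, at low levels. The part of all these in the result was not tested.

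**Figure D4:**
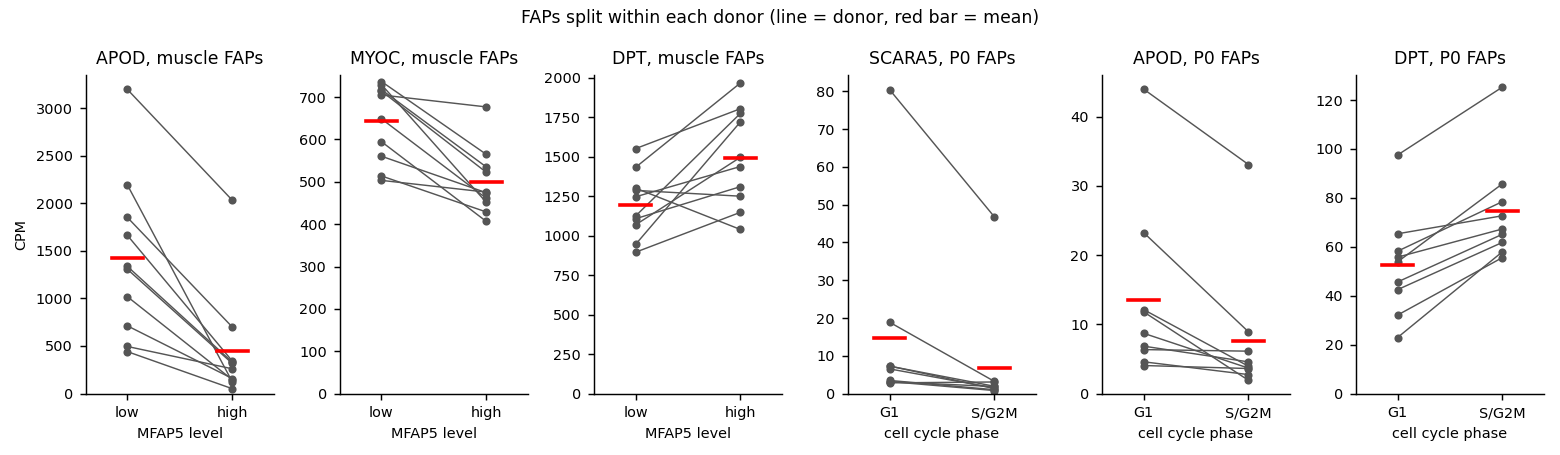
Levels in 2 groups of FAPs from the same donor (y axis: CPM on a linear scale from 0; points joined by a line are 1 donor, red bars are means). The left panels compare MFAP5-low with MFAP5-high muscle FAPs of 10 donors, where APOD goes from a mean of 1420 to 445 CPM; the right panels compare G1 with S/G2M FAPs of 9 donors at P0, where SCARA5 goes from 14.8 to 6.82 CPM.

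None of these genes was called between calves and adults. In muscle FAPs APOD was at 1048 ± 874 CPM in the 5 calves and 725 ± 427 in the 5 adults (log2FC 0.68, SE 0.64, edgeR adjusted p = 0.662) and GFRA1 at 227 ± 14.1 against 201 ± 25.4 CPM (log2FC 0.29, SE 0.12, edgeR adjusted p = 0.212), with overlapping ranges. The log2FC of MYOC, VIT, SPP2, CYP4B1, DPT and SCARA5 lay between -0.23 and 0.34 (edgeR adjusted p from 0.385 to 0.993). All 8 genes were tested in muscle and none was called by edgeR or DESeq2, beside 1.32% of 6158 genes called. At an unadjusted p under 0.05 there was 1 of the 8, GFRA1, beside 1063 of the 6158 genes. At P0, SCARA5 was at 13.4 ± 23.3 CPM in 5 calves and 2.13 ± 0.665 in 4 adults (log2FC 2.71, SE 1.25, edgeR adjusted p = 0.967), a difference that came mostly from donor 5: without it the log2FC was 0.54. APOD was at 12 ± 13.6 against 4.42 ± 1.37 CPM (log2FC 1.52, SE 0.76, edgeR adjusted p = 0.967; 0.51 without donor 5). MYOC, VIT and DPT had a log2FC of -0.05, 0.43 and 0.36 (edgeR adjusted p from 0.968 to 0.997), and SPP2, CYP4B1 and GFRA1 were under the count filter. No gene of 11466 was called at P0 by edgeR (0%), with 575 at an unadjusted p under 0.05 and 8 called by DESeq2.

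FAPs of the sorted FAP cultures were compared with FAPs of the unsorted cultures, 3 donors each. Sorting, coating (collagen against fibronectin) and animal cannot be told apart in this comparison. Of the 8 genes, 5 passed the filter on low counts at P2, 4 at P5 and 3 at P8. None of these was called by edgeR or DESeq2, beside 0.017%, 1.04% and 0.0201% of all genes in edgeR, and at an unadjusted p under 0.05 there was 1 at P2 (VIT), 1 at P5 (DPT) and 0 at P8, beside 1159 of 11786, 3035 of 11687 and 478 of 9950 genes. DPT at P5 came closest: it was at 106, 192 and 178 CPM in the FAP cultures (donors 4, 7 and 8) and 14.5, 90.1 and 29.0 in the unsorted cultures (donors 1, 2 and 9), groups that did not overlap (log2FC 1.75, SE 0.67, edgeR adjusted p = 0.169), as was the case for 33.3% of all genes. Without donor 2 it was called, with a log2FC of 2.81 and an edgeR adjusted p of 0.0456. VIT then had a log2FC of 2.56, but with 5 and 9 UMIs left in the unsorted cultures (donors 1 and 9), against 88, 47 and 61 in the FAP cultures, it passed the filter through the FAP cultures and its call adds nothing. SCARA5 had a higher level in FAP cultures at P2 (log2FC 1.64, SE 0.80, edgeR adjusted p = 0.568) lower at P5 (-1.12, SE 0.68, edgeR adjusted p = 0.344) and at a log2FC of 0.40 at P8, none of them called. APOD had a log2FC of 0.04 at P2, 0.82 at P5 and 0.47 at P8 (edgeR adjusted p from 0.502 to 0.999). VIT had 1.85 at P2 and 1.27 at P5, MYOC 0.67 at P2, and DPT 0.27 at P2 and 1.25 at P8 (edgeR adjusted p from 0.239 to 0.999).

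**Figure D5:**
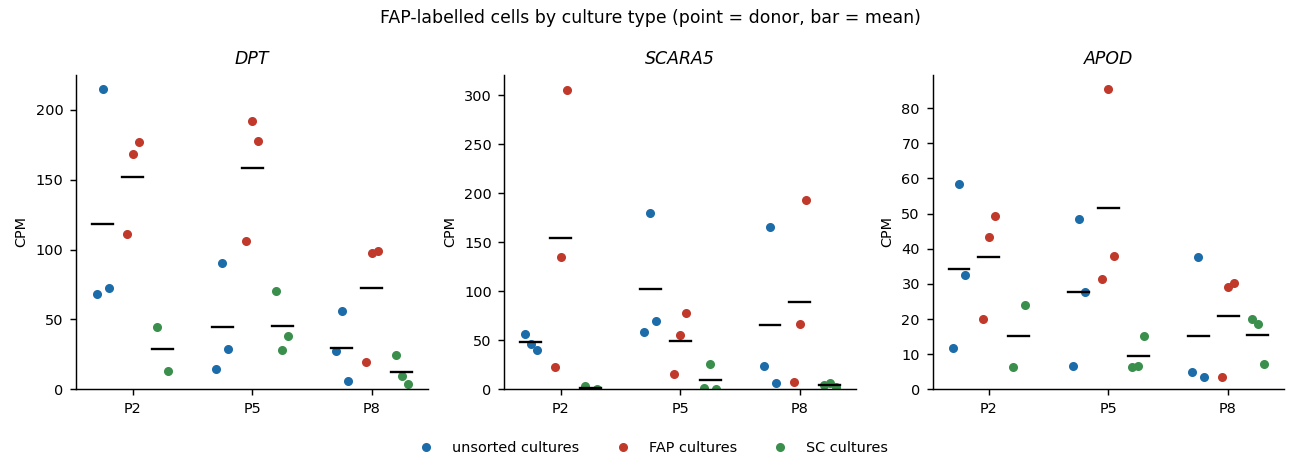
DPT, SCARA5 and APOD in FAP-labelled cells at P2, P5 and P8 by culture type (y axis: CPM on a linear scale from 0; points are donors, bars are means of 3 donors, or of 2 for SC cultures at P2). At P5 the FAP cultures lie above the SC cultures for DPT (106 to 192 against 28.2 to 70.3 CPM) and APOD (31.3 to 85.5 against 6.48 to 15.2 CPM).

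The cells labelled FAPs in the SC cultures differed from those of the FAP cultures. There were 593, 31 and 70 of them at P5 (donors 5, 6 and 10), and their FAP markers summed to 8239 to 11355 CPM, against 42287 to 56446 in the FAP cultures, so the label covered cells with less of its own markers. Their SC markers summed to 15 to 88.1 CPM, against 16.8 to 20.5, and their smooth muscle and mesenchymal markers to 358 to 993 (median 730), against 222 to 484 (median 265). The part of these marker differences in the following values was not tested. Sorting, coating (laminin against collagen) and animal cannot be told apart between these cultures either.

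DPT was at 70.3, 28.2 and 38.1 CPM in the SC cultures (donors 5, 6 and 10) and at 106, 192 and 178 in the FAP cultures (donors 4, 7 and 8), with no overlap, and was called lower (log2FC -1.84, SE 0.40, edgeR adjusted p = 0.0154). It was not called without donor 7, 8 or 10, with edgeR adjusted p between 0.0539 and 0.0630. APOD was at 6.48, 6.77 and 15.2 CPM against 31.3, 85.5 and 37.9, also apart (log2FC -2.79, SE 0.62, edgeR adjusted p = 0.0172), and was not called without donor 5 (edgeR adjusted p = 0.103). SCARA5 was at 1.61, 26.0 and 0 CPM against 15.7, 55.0 and 78.2, where donor 6 overlapped the FAP cultures (log2FC -4.16, SE 1.4, edgeR adjusted p = 0.0723). Without donor 6 it was called, with a log2FC of -5.34. Donors 5 and 10 then had 1.61 and 0 CPM, so it passed the count filter through the FAP cultures and this call adds nothing.

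In this comparison 7.9% of 11517 genes were called lower and 53.6% had groups that did not overlap, so the separation of DPT and APOD was common among genes. VIT had 1 UMI in the SC cultures and 196 in the FAP cultures, a pooled ratio of 46.0 (interval 8.17 to 1828), and it passed the filter through the FAP cultures alone, so its call adds nothing. Of 20 pan-FAP genes 9 were lower in the SC cultures, among them PDGFRA (-3.16), COL3A1 (-2.86) and DCN (-2.64), and 3 higher, led by MFAP4 (3.18); the median log2FC was -1.16, against -0.03 over all genes. Of 10 complement genes 8 were lower and 0 higher (median -2.51), with C1R (-3.49) and C1S (-3.25).

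At P8 none of the 3 tested genes was called by edgeR, beside 1.75% of 9911 genes, and SCARA5 and DPT had an unadjusted p under 0.05, as had 1925 of the 9911 genes. SCARA5 was at 4.54, 6.59 and 2.56 CPM in the SC cultures (donors 5, 6 and 10) and at 7.66, 66.2 and 193 in the FAP cultures (donors 4, 7 and 8), without overlap (as for 25.5% of genes), and its log2FC of -4.25 (SE 1.17, edgeR adjusted p = 0.136) was close to that at P5. DESeq2 called it with a log2FC of -4.36, and so did edgeR without donor 4 (-4.78). DPT was at 24.4, 9.89 and 3.58 CPM against 19.9, 97.3 and 99.3 (log2FC -2.56, SE 0.85, edgeR adjusted p = 0.184; called without donor 4 at -3.03). APOD, at 15.3 ± 7.10 against 21.0 ± 15.2 CPM, had a log2FC of -0.48 (SE 0.78, edgeR adjusted p = 0.779). The FAP markers of these cells summed to 9229 to 12515 CPM in the SC cultures and 16886 to 45075 in the FAP cultures at P8. Smooth muscle and mesenchymal markers had medians of 603 and 1005 CPM, the reverse of the order at P5. The part of these markers in the P8 values was not tested.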

How the data were processed

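Single cells of the muscle and of the cultures were profiled with 10x Genomics 3′ chemistry, 1 library per timepoint. The authors aligned reads with Cell Ranger 6.0.1 to the ARS-UCD1.2 bovine assembly, filtered cells on genes, counts and mitochondrial share, assigned cells to donors with demuxlet, and deposited raw UMI counts per gene and cell with tables of donor, predicted cell type and cell cycle phase. Those types were used as deposited, and no doublet caller was run here. No further columns of per-sample values were left unused (0).

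From the deposited counts, UMIs were summed per donor and cell type over cells of the deposited cell tables (at least 10 cells), and CPM, shares of cells thinned to 2000 UMIs (seed 11) and pooled ratios with exact 95% intervals were computed. Intervals and the floor of 3 counts cover counting error only. Cells below 2000 UMIs (38 muscle, 101 P0, 0 P2, 0 P5 and 13 P8 FAPs) were left out of thinned shares. All genes were fitted with edgeR 4.0.16 (filterByExpr, TMM, robust quasi-likelihood F test, Benjamini-Hochberg over all genes tested). Calls needed both an adjusted p under 0.05 and a log2FC beyond 1 in either direction. The G1 and MFAP5 splits had donor as a block, since both parts came from the same animal. The fits of FAPs against other muscle cells and between timepoints had none, although they also shared animals. For these the block was an alternative. Alternatives were DESeq2 1.42.0, no count filter, other depths or blocks and leaving out each donor. R 4.3.3, Python 3.11.15, numpy 2.4.6, pandas 2.3.3, scipy 1.17.1 and matplotlib 3.10.9 were used, and the fits were tested on simulated data.

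The 8 genes, the gene lists and the tests were chosen with earlier results of these data known. Each of the 8 genes is named in each comparison in which it was tested. For each, the 3 genes of highest correlation are named, among genes with a symbol that reached 10 CPM in a mean. Of each list, up to 4 called genes of largest log2FC are named that moved the same way in every donor or had groups apart. Age class, sex and culture type came from the study's description of the donors. Symbols matched RefSeq for 8 of 8 genes, but symbol and Ensembl identifier together matched for 0, so this check rests on symbols alone. Sequences were not used here.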

Additional observations from a re-analysis of the deposited data

Results flagged for a closer look

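Donors far from the rest of their group were looked for in 35 groups of 8 to 10 donors. Dixon's test at the 95% level was used, where chance alone marks about 1 group in 20. At P2, P5 and P8 a group mixed the culture types, so that rate need not hold there. Donor 5, a calf, stood out at P0 in 3 genes at once: SCARA5 was at 54.9 CPM (other donors 1.27 to 5.55), APOD at 35.7 CPM (others 3.04 to 11.1) and DPT at 119 CPM (others 51.8 to 82.2). SCARA5 was seen in 330 of its 782 P0 FAPs (42.2%), with at most 14 UMIs in a cell, and APOD in 278 (35.5%), so the excess was not that of a few cells. The share of its FAPs in S or G2M was 72.8%, against a mean of 78.7% over donors.

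APOD in muscle FAPs of donor 4 was 2563 CPM, beside 231 to 1257 in the others. SCARA5 was 306 CPM at P2 in donor 8 and 180.2 CPM at P5 in donor 2. MYOC at P2 was 3.34 CPM in donor 8, from 60 UMIs. VIT at P8 was 1.63 CPM in donor 4 and SPP2 at P2 was 0.228 CPM in donor 2, from 10 and 7 UMIs.

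From P2 to P5, SCARA5 in FAPs went down in all 3 FAP cultures (mean change -105 CPM) and up in all 3 unsorted cultures (mean change 55.0 CPM). Single donors carried both means: the changes were -7.33, -79.8 and -228 CPM in donors 4, 7 and 8 (mean -43.6 without donor 8) and 1.72, 134 and 29.3 CPM in donors 1, 2 and 9 (mean 15.5 without donor 2). By UMIs per cell donor 1 went the other way, from 96.8% to 87.4% of its muscle value. The difference between culture types was not tested.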

How the results depend on the processing

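No called result changed direction under the alternatives tried. Without the count filter the genes called were 6925 (3997 with it) for P0 against muscle, 3501 (2194) for P2 against P0, 152 (81) for calf against adult muscle FAPs, 793 (513) for cycling against G1 and 291 (99) for the MFAP5 split. Thinned to the smallest sum the 4 successive timepoint comparisons gave 612, 39, 1 and 5 genes (3997, 2194, 76 and 46), at a much lower depth, and cells thinned to 2000 UMIs gave 30 for the MFAP5 split. DESeq2 called 125 genes for P5 against P2, 75 for P8 against P5, 8 for calf against adult at P0 (0 by edgeR), 77, 344 and 23 for FAP against unsorted cultures at P2, P5 and P8 (2, 121 and 2) and 414 for SC against FAP cultures at P8 (173), where it called 1 of the 8 genes, and it called 2 of them, SCARA5 and APOD, in cycling against G1.

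With donor as a replicate block, P5 against P2 gave 434 genes and P8 against P5 gave 120. Without the replicate block, cycling against G1 and the MFAP5 split called 0 of the 8 genes (518 and 73 genes in all). Age as a covariate gave 1, 7 and 0 genes for FAP against unsorted cultures. The cause of these shifts was not tested. Leaving out each donor gave 57 to 105 genes for calf against adult in muscle and 0 to 1 at P0, 490 to 540 for cycling (1 to 2 of the 8 genes), 77 to 104 for MFAP5 (1 to 1), 0 to 10, 1 to 170 and 0 to 1 for FAP against unsorted cultures (0 to 0, 0 to 2 and 0 to 0), and 1645 to 1929 and 1 to 523 for SC against FAP cultures (2 to 4 and 0 to 2). The 1 and the 523 genes at P8 came without donor 7 and without donor 4, and the 1 and the 170 at P5 in FAP against unsorted cultures without donor 8 and without donor 2.

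By UMIs per cell the log2 change from muscle to P0 was -2.28 for DPT, -4.02 for SCARA5, -4.69 for APOD, -5.76 for VIT and -6.74 for MYOC, and for SCARA5 in CPM it was -7.63 without donor 5. Levels of SPP2, CYP4B1 and GFRA1 in culture rest on so few UMIs that depth limits their folds. With 1 library a timepoint, library effects and timepoint cannot be told apart, and 3 donors a culture type leave small groups.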
